A study of Neurospora crassa OR74A with 13 samples.

Results

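The genes described here are 8 cellulase genes of the filamentous fungus Neurospora crassa, out of 9733 genes in the deposited tables. They were taken as a list of gene identifiers from the glycoside hydrolase (GH) families GH5, GH6, GH7 and GH45, with transcript values summed per gene. All 8 were found in each of the 13 libraries, each with 1 transcript. Cellobiohydrolases work along a cellulose chain from its end and release cellobiose, the disaccharide of glucose. Endoglucanases cut inside the chain and open new ends, and beta-glucosidases then split cellobiose to glucose. In N. crassa these enzymes are secreted when the fungus grows on plant cell wall material, under the transcription factors CLR-1 and CLR-2.

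Polyadenylated RNA was sequenced from mycelium pregrown for 16 h with sucrose and shifted for 4 h to a medium with Avicel (a purified crystalline form of cellulose), with cellobiose, with sucrose again, or with no carbon. The wild type (WT) was the reference strain FGSC 2489, and the mutant TBGK carries deletions of the beta-glucosidase genes gh3-4 (NCU04952), gh1-1 (NCU00130) and gh3-3 (NCU08755). The WT was sampled in 3 biological replicates on sucrose, no carbon and Avicel and in 1 library on cellobiose, and the mutant in 1 library each on sucrose, cellobiose and Avicel. The series asks which genes respond to cellulose in the WT, and whether cellobiose gives the mutant a level like that of the WT on cellulose.

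Levels are in FPKM (fragments per kilobase, scaled to the library), which is per length, so different genes can be set side by side within a library. The scaling was not by total reads. Reads recovered from coverage were 5.23 to 5.45 times the scaling number on no carbon, 6.02 to 7.81 on WT Avicel and 7.76 to 9.28 on WT sucrose. The same FPKM is therefore not the same share of reads in each group. Depth was 11.8 to 110.6 M reads (M, 1000000) in the triplicate libraries and is unknown in the 4 single ones. Avicel replicate 1 and sucrose replicate 1 were the shallowest (11.8 and 12 M reads) and had reads of 40 bases. The other Avicel and sucrose libraries had 50 bases and all no carbon libraries 51, so read length and the absence of carbon cannot be told apart. The deleted genes were near 0 in TBGK, at 0 to 9.21 FPKM. Summed FPKM of 4 conidiation genes (con-6, con-10, eas and fl, markers of asexual spore formation) also moved with the groups. It was 90.6 to 437 in WT on sucrose (con-6 and con-10 at 0 in some library), 18604 to 36918 on Avicel, 73166 to 209411 on no carbon and 18765 on cellobiose. In TBGK it was 151 on sucrose, 9722 on Avicel and 33153 on cellobiose. Outside sucrose the sum was mostly eas, with 18527 FPKM in WT on cellobiose and 9298 in TBGK on Avicel. The other genes did not all follow it. In WT on cellobiose con-6 (10.8) and con-10 (65.4) lay below their WT Avicel ranges of 517 to 2082 and 158 to 699. There fl (163) lay above its WT Avicel range of 58.8 to 96.7. The part of these differences in the cellulase values was not tested. In bulk RNA, a larger share of cells expressing a gene and more of its RNA per cell cannot be told apart.

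The genes with the highest levels on Avicel were cbh-1 and both GH6 genes. The gene cbh-1 (NCU07340, supercont10.4, 4311049 to 4313881) encodes the GH7 cellobiohydrolase, a main enzyme of secreted fungal cellulase. Its level was 186620, 86756 and 104215 FPKM in WT Avicel replicates 1, 2 and 3, against 116, 103 and 123 without carbon and 11.2, 70.2 and 16.7 with sucrose. WT on cellobiose had 246 FPKM, while TBGK had 32.4 on sucrose but 130865 on cellobiose and 151613 on Avicel. The Avicel libraries of both strains and TBGK on cellobiose therefore formed one high class, with no value between 246 and 86756. The transcript was the most abundant of all 9733 genes in Avicel replicate 1 and in TBGK on Avicel, and ranked 3 in TBGK on cellobiose.

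The GH6 gene gh6-2 (NCU09680, supercont10.5, 858215 to 859731) encodes the other classical cellobiohydrolase. Its level was 148857, 51927 and 69064 FPKM on WT Avicel, 96.6, 98.3 and 120 without carbon, and 69.8, 86.1 and 54.7 with sucrose. It was 131 in WT on cellobiose, and in TBGK 94.3 on sucrose, 124112 on cellobiose and 123749 on Avicel. In the 8 libraries outside the high class gh6-2 stayed between 54.7 and 131 FPKM, and sucrose and no carbon did not overlap in the WT. Of the 8 genes it had the highest FPKM in each of the 4 sucrose libraries. It stood at 6.26, 1.23 and 3.26 times cbh-1 in the WT sucrose replicates, against 0.599 to 0.798 times on Avicel.

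A further GH6 gene, gh6-3 (NCU07190, supercont10.5, 6293623 to 6294895), followed the same pattern in all but one library. Its level was 81467, 33297 and 45431 FPKM on Avicel, 96.3, 95 and 107 without carbon and 29.8, 50.1 and 36.5 with sucrose. In TBGK it was 43.8 on sucrose, 93034 on cellobiose and 73074 on Avicel. In WT on cellobiose it was 3989 FPKM, above every no carbon and sucrose library and below every Avicel library. In the same library cbh-1 (246) and gh6-2 (131) also lay above all no carbon and sucrose libraries of the WT, by far less.

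**Figure D1:**
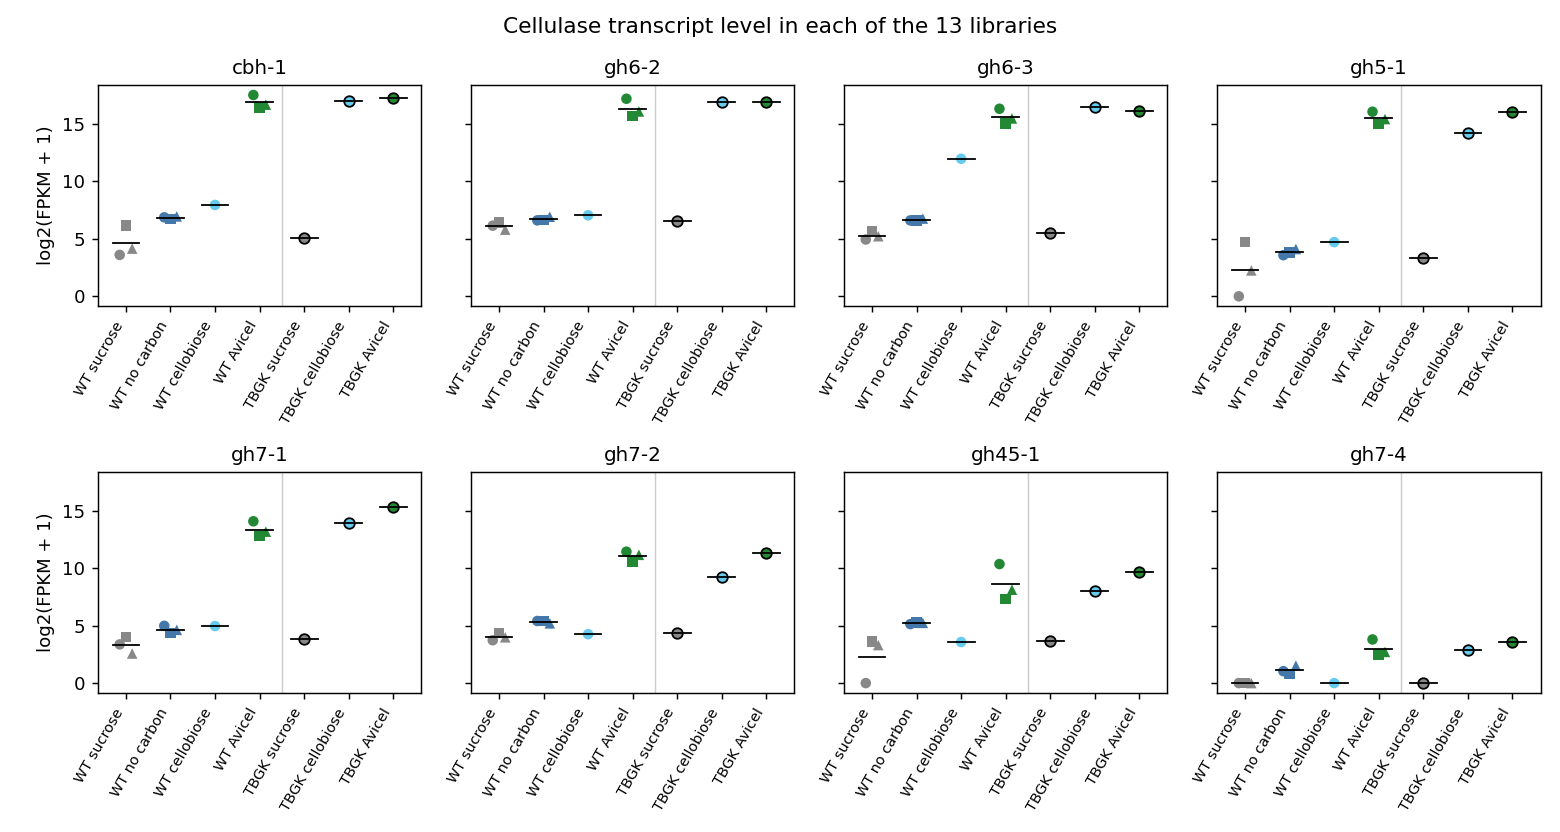
Level of each cellulase gene as log2(FPKM + 1) in 13 libraries; circles, squares and triangles are replicates 1, 2 and 3, black outlines mark TBGK and short lines are group means. WT Avicel, TBGK Avicel and TBGK cellobiose stand far above the other groups for most genes, and in WT cellobiose gh6-3 (3989 FPKM) is the highest of the 8.

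The endoglucanase gh5-1 (NCU00762, supercont10.1, 7271714 to 7273108), of family GH5, had 68101, 32852 and 43671 FPKM on Avicel. It had 11, 12.8 and 16.3 without carbon and 0, 25.6 and 3.77 with sucrose, so the latter groups overlapped. The sucrose values came from 0, 120.0 and 16 reads. WT on cellobiose had 25.3 FPKM, while TBGK had 9.04 on sucrose, 18848 on cellobiose and 65402 on Avicel. TBGK on cellobiose was therefore high, yet below each of the 4 Avicel libraries.

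The GH7 endoglucanase gh7-1 (NCU05057, supercont10.6, 3894456 to 3895844) had 17224, 7077 and 9207 FPKM on Avicel, 30.5, 19.4 and 23.7 without carbon and 9.31, 15.2 and 4.93 with sucrose. In WT on cellobiose it had 30.2, and in TBGK 39741 on Avicel, 15157 on cellobiose but 13 on sucrose. TBGK on Avicel was the highest library for this gene, above all 3 WT Avicel replicates. The GH7 gene gh7-2 (NCU04854, supercont10.4, 478093 to 479508) had 2757, 1543 and 2277 FPKM on Avicel, 41.3, 41.5 and 35.6 without carbon and 12.2, 19.7 and 14.8 with sucrose. WT on cellobiose had 18.1, while TBGK had 18.9 on sucrose, 587 on cellobiose and 2556 on Avicel. Its level in WT on cellobiose lay within the range on sucrose and below all no carbon libraries.

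The GH45 endoglucanase gh45-1 (NCU05121, supercont10.6, 3681667 to 3682601) varied most within the Avicel group, with 1306, 158 and 277 FPKM, an 8.25-fold range. It had 34, 37.3 and 36.7 without carbon and 0, 11.2 and 8.88 with sucrose. WT on cellobiose had 10.9, while TBGK had 11.4 on sucrose, 252 on cellobiose and 800 on Avicel. The WT groups did not overlap, but the step from no carbon to Avicel was the smallest in proportion to the replicate spread. The GH7 gene gh7-4 (NCU05104, supercont10.6, 3732709 to 3734273) was the lowest member, with 12.9, 4.62 and 5.54 FPKM on Avicel, 1.05, 0.724 and 1.85 without carbon and 0 in all 3 sucrose libraries. TBGK had 11.2 on Avicel and 6.14 on cellobiose, and gh7-4 was listed at 0 in TBGK on sucrose and in WT on cellobiose. The genes gh45-1, gh7-4 and gh7-1 lie within 214 kb of one contig.

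In the WT, 7 of the 8 genes rose on Avicel against no carbon, beside 3.90% of all 8759 genes tested (limma with Benjamini-Hochberg adjustment over those genes, adjusted p under 0.05). The median difference of the 8 genes in log2(FPKM + 1) was 8.82, against -0.16 over all genes. The 3 genes gh6-2, gh6-3 and gh7-2 had the smallest standard errors, at 9.59 (SE 0.36), 8.95 (SE 0.32) and 5.72 (SE 0.25), whereas gh5-1 had the largest difference, 11.66 (SE 0.97). The gene gh45-1 did not pass, at 3.39 (SE 1.01, limma adjusted p = 0.106), although its lowest Avicel value lay above its highest no carbon value. The groups were separate in this way for all 8 cellulase genes, beside 10.7% of all genes. Without sucrose replicate 1, which enters this comparison only through the shared spread, its adjusted p by limma was 0.0268. Without both 40-base libraries it was 0.00193, at a difference of 2.51, and over all alternatives the adjusted p by limma ranged from 0.00193 to 0.332.

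The call of gh7-4 (1.89, SE 0.43, limma adjusted p = 0.0383) rested on few reads and was lost in 14 of 23 alternatives. The 3 Avicel libraries held 25, 42 and 47 reads of it, the no carbon libraries 10, 19 and 51, and the sucrose libraries none. Per M reads this was 1.11 on Avicel and 0.308 on no carbon, a 3.62-fold difference. With a floor of 3 reads over the sucrose group, Avicel was at least 34.9-fold and no carbon at least 9.62-fold higher than sucrose, intervals on such counts covering counting error only. Without no carbon replicate 3, which held 51 of the 80 no carbon reads, no carbon was at 0.194 per M reads, Avicel was 5.75-fold higher than no carbon, and the bound of no carbon over sucrose was 6.07-fold. Leaving out Avicel replicate 2 or 3, any no carbon replicate, or sucrose replicate 2 or 3 gave adjusted p-values by limma of 0.0506 to 0.115, and all alternatives together 0.0167 to 0.185.

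Against sucrose, all 8 genes rose on Avicel, beside 33.9% of all genes, with a median difference of 10.10 against 0.26 over all genes. The order of these differences was gh5-1 (13.16, SE 0.97), cbh-1 (12.23, SE 0.59), gh6-3, gh6-2 and gh7-1 near 10, then gh7-2 (7.03, SE 0.25), gh45-1 (6.29, SE 1.01) and gh7-4 (3.0, SE 0.43, limma adjusted p = 0.000353). Every one of these calls was kept in all 23 alternatives. The size depended on the libraries. Within the 40-base pair (replicate 1 of each group) the log2 difference was 13.91 for cbh-1, 16.06 for gh5-1 and 10.35 for gh45-1. Within the 50-base libraries (replicates 2 and 3 of each group) it was 11.39, 11.72 and 4.26. All 8 genes were highest in Avicel replicate 1, at 1.44 (gh7-2) to 6.00 (gh45-1) times the mean of the other replicates, and all 8 were lowest in Avicel replicate 2. Among the sucrose libraries 7 of 8 were highest in replicate 2.

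Differences between no carbon and sucrose were smaller. On no carbon against sucrose 6 of 8 genes rose, beside 40.2% of all genes, and the median difference was 1.35 against 0.39 over all genes. The groups did not overlap, with no carbon higher, for 7 of 8 genes, beside 45.3% of all genes. The largest differences were those of gh45-1 (2.90, SE 1.01, limma adjusted p = 0.032) and cbh-1 (2.21, SE 0.59, limma adjusted p = 0.00967). For gh45-1 this was close to its difference of 3.39 on Avicel against no carbon. Its call was lost in 9 of 23 alternatives, with adjusted p-values by limma of 0.000756 to 0.186 over all of them. Without sucrose replicate 1, where it had 0 reads, its difference was 1.75 (limma adjusted p = 0.0781), and with the replicate block its adjusted p by limma was 0.0613. The genes gh6-3, gh7-1, gh7-2 and gh7-4 had 1.37, 1.34, 1.31 and 1.11. Those that did not pass were gh6-2 (0.59, SE 0.36, limma adjusted p = 0.178) and gh5-1 (1.5, SE 0.97, limma adjusted p = 0.202). The count was 2 under quantile normalization, beside 29.1% of all genes, with gh5-1, gh7-1 and gh7-4 then just below 0, and 3 with a pseudocount of 10, without no carbon replicate 1 or replicate 3, or with voom on recovered reads. With TPM scaling, where 59.5% of all genes rose, gh6-2 (1.35, limma adjusted p = 0.00298) and gh5-1 (1.28, limma adjusted p = 0.0312) passed. The gene gh5-1 also passed without sucrose replicate 2 (2.70, limma adjusted p = 0.00683), and gh6-2 without Avicel replicate 1 (limma adjusted p = 0.0307). The calls of cbh-1 and gh6-3 were kept in all 23 alternatives.

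**Figure D2:**
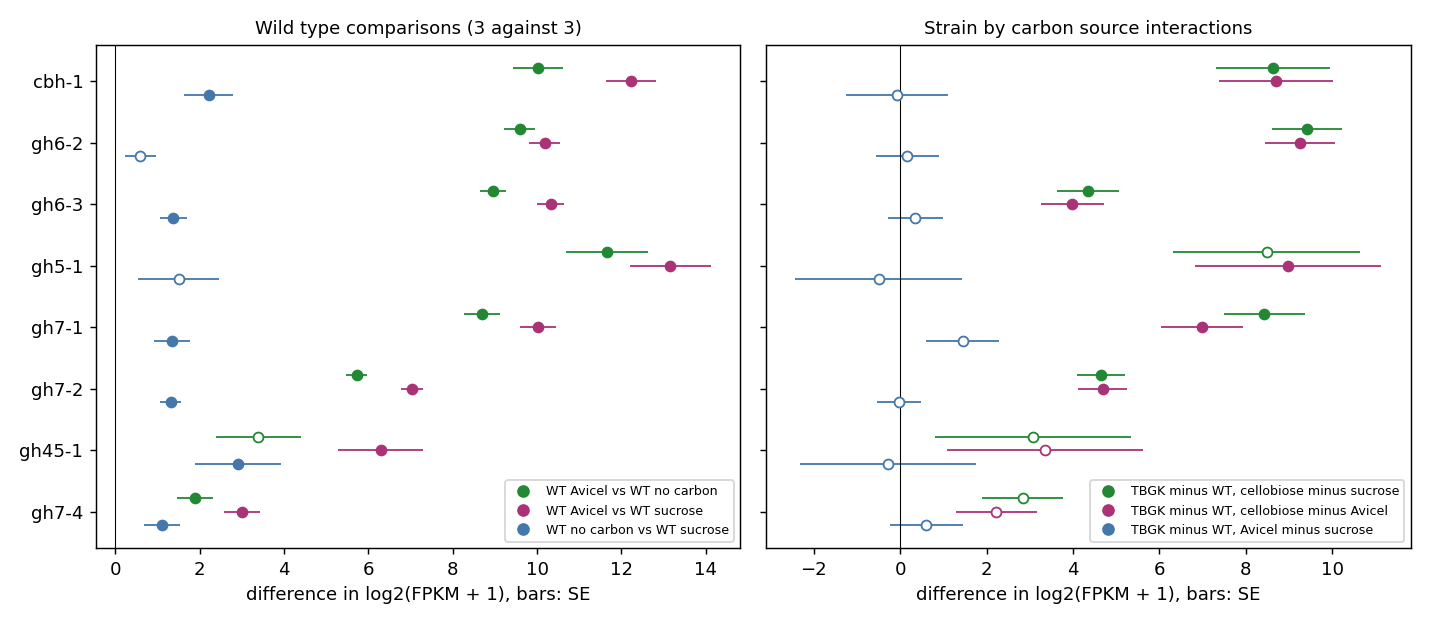
Difference in log2(FPKM + 1) with its limma standard error for each gene; left, the 3 comparisons among WT triplicates, right, the 3 strain by carbon source interactions; filled points have an adjusted p under 0.05. The 2 Avicel comparisons reach 8 to 13 for the abundant genes while no carbon against sucrose stays under 3, and the interactions that involve cellobiose are high while that of Avicel minus sucrose lies near 0.

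The series also asks what cellobiose does in each strain. On cellobiose, all 8 genes were at least 2-fold higher in TBGK than in the WT, beside 21.6% of all genes, in a comparison of 1 library with 1 library that has no test of its own. In FPKM, gh6-2 was 945-fold, gh5-1 744-fold, cbh-1 532-fold and gh7-1 502-fold higher. The ratios of gh7-2 (32.5), gh6-3 (23.3) and gh45-1 (23.1) were smaller, and gh7-4 was listed at 0 in the WT. The lower ratio of gh6-3 went with its high WT level, whereas those of gh7-2 and gh45-1 went with lower TBGK levels. Within TBGK, cellobiose was at least 2-fold above sucrose for 8 of 8 genes (29.8% of all genes), as was Avicel (27.8%).

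A test of the strains' difference was had only from a fit over all 13 libraries in which single libraries were assumed to vary like the WT triplicates. The labels mark the triplicate libraries as duplicating an earlier deposit. In the interactions with cellobiose, only the WT sucrose or WT Avicel term comes from triplicates, so a difference between deposits does not cancel. The cellobiose minus sucrose response was larger in TBGK than in the WT for 5 of 8 genes, beside 1.42% of all genes. These were gh6-2 (9.43 log2, SE 0.81, limma adjusted p = 0.00142), cbh-1 (8.62, SE 1.32), gh7-1 (8.44, SE 0.94), gh7-2 (4.66, SE 0.56) and gh6-3 (4.34, SE 0.72, limma adjusted p = 0.0226). The gene gh5-1 had 8.49 (SE 2.16) and did not pass (limma adjusted p = 0.0905, 0.00259 to 0.158 over its alternatives), nor did gh45-1 (3.08, SE 2.27) or gh7-4 (2.84, SE 0.94). The gene gh5-1 was called in 4 of 12 alternatives, namely without sucrose replicate 1 (limma adjusted p = 0.016) or 2 (0.0479), with a pseudocount of 10 and with TPM scaling. The call of gh6-3 was lost without sucrose replicate 3 (limma adjusted p = 0.0578, the highest over its alternatives), and gh7-4 was called without Avicel replicate 1 (limma adjusted p = 0.0275, up to 0.365 in others). The cellobiose minus Avicel response was larger in TBGK for 6 of 8 genes, beside 5.38% of all genes. This added gh5-1 (8.98, SE 2.16, limma adjusted p = 0.0382), a call that was lost when any of 6 libraries was left out, up to an adjusted p by limma of 0.0752.

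For Avicel minus sucrose 0 of 8 interactions passed by limma, beside 0% of all genes in the upward direction, and 0 of 8 had an unadjusted p under 0.05. The values ranged from -0.49 (SE 1.93) for gh5-1 to 1.45 (SE 0.84) for gh7-1, and for cbh-1 it was -0.08 (SE 1.18). The errors of cbh-1, gh5-1 and gh45-1 (-0.28, SE 2.03) allow differences of several fold in either direction. The error was smallest for gh7-2 (-0.03, SE 0.50).

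Set against the WT Avicel replicates, TBGK on cellobiose fell within the range of the 3 replicates for cbh-1, gh6-2, gh7-1, gh45-1 and gh7-4, beside 33.7% of all genes. It was above the range for gh6-3, at 174% of the WT Avicel mean, and below it for gh5-1 (39.1%) and gh7-2 (26.8%). Of all genes 33.9% lay above and 32.4% below. For cbh-1, gh6-2, gh7-1 and gh7-4 the range reached the TBGK value only through Avicel replicate 1. Against the mean of Avicel replicates 2 and 3, TBGK on cellobiose was at 137% for cbh-1, 205% for gh6-2, 186% for gh7-1 and 121% for gh7-4. On that basis gh45-1 was at 116%, gh6-3 at 236%, gh5-1 at 49.3% and gh7-2 at 30.7%. By the 2-fold rule 0 genes were higher (14.6% of all genes) and 2 were lower (10.2%), gh5-1 and gh7-2. In the 13-library fit, which called 2.49% of all genes in this comparison, gh7-2 passed (-1.86 log2, limma adjusted p = 0.0429) and gh5-1 did not (-1.29, limma adjusted p = 0.609). Against TBGK on Avicel, which is 1 library against 1 library, 4 of 8 genes were at least 2-fold lower on cellobiose (8.23% of all genes) and 0 were higher (9.98%). The lower ones were gh7-2 (0.230 times), gh5-1 (0.288), gh45-1 (0.316) and gh7-1 (0.381), while cbh-1 (0.863), gh6-2 (1.0) and gh6-3 (1.27) were within 1.5-fold and gh7-4 was at 0.550. The 4 lower genes are the endoglucanases gh5-1, gh7-1 and gh45-1 and the GH7 gene gh7-2, and cbh-1, gh6-2 and gh6-3 were not among them. Under quantile normalization cbh-1 (-1.14 log2) was past 2-fold lower and gh7-1 (-0.73) was not, so this split depends on the scaling. Neither group has a replicate, so none of these differences can be set against a spread of its own. The 3 WT Avicel replicates spanned 1.79-fold for gh7-2, 2.07-fold for gh5-1, 2.43-fold for gh7-1 and 8.25-fold for gh45-1.

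On Avicel, TBGK lay within the WT replicate range for 7 of 8 genes, beside 31.6% of all genes. The exception was gh7-1, above it at 356% of the WT Avicel mean, as were 30.9% of all genes. Avicel replicate 1 set the top of the range for all 8 genes. TBGK on Avicel lay above replicates 2 and 3 for each of them, at 134% (gh7-2) to 488% (gh7-1) of the mean of those replicates. The share of all genes above replicates 2 and 3 was not taken. By the 2-fold rule 2 genes, gh7-1 and gh45-1, were higher in TBGK (14.6% of all genes), and this count was 4 without Avicel replicate 1 and 1 without Avicel replicate 2 or 3. In the 13-library fit neither passed (0.685% of all genes did), with 1.94 (SE 0.59, limma adjusted p = 0.128) for gh7-1. On sucrose the differences between TBGK and WT were 0 to 1.33 in log2(FPKM + 1), with 1 of 8 genes, gh45-1, at least 2-fold higher on the log2(FPKM + 1) scale (10.4% of all genes). Without sucrose replicate 1, in which gh45-1 had 0 reads, that count was 0.

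A ratio within a library does not depend on how the library was scaled, so the makeup of the cellulase pool was compared as FPKM relative to cbh-1. Such a ratio does depend on the effective lengths, which differ between libraries (756 to 1113 bases for gh6-2 in the triplicates). The order of all 8 genes was the same in the 5 libraries with high levels, namely cbh-1, gh6-2, gh6-3, gh5-1, gh7-1, gh7-2, gh45-1 and gh7-4. In FPKM, which shifts with the whole library, the ranges of neighbours across the WT Avicel replicates overlapped among the first 4, from cbh-1 to gh5-1, and did not overlap from gh5-1 downward. The FPKM ranges of cbh-1, gh6-2 and gh6-3 overlapped on no carbon, as did those of gh7-2 and gh45-1. On sucrose gh6-2 and gh6-3 did not overlap, while cbh-1 overlapped both. As a percent of cbh-1 in the same library, gh6-2 was 59.9% to 79.8% in the WT on Avicel and 81.6% in TBGK on Avicel, and gh5-1 was 36.5% to 41.9% and 43.1%. In TBGK on cellobiose gh6-2 stood at 94.8% of cbh-1, gh6-3 at 71.1% (38.4% to 48.2% in the 4 Avicel libraries) and gh5-1 at 14.4%. The gene gh7-2 stood at 0.448% of cbh-1, against 1.48% to 2.19% in the 4 Avicel libraries. Relative to cbh-1, TBGK on cellobiose thus had more of gh6-2 and gh6-3 and less of gh5-1, gh7-2 and gh7-4 than any Avicel library. The genes gh7-1 (11.6%) and gh45-1 (0.193%) were within the range of the Avicel libraries. Lying outside a range is common here. In FPKM, 33.9% of all genes lay above and 32.4% below the WT Avicel range in TBGK on cellobiose. No such share was taken for ratios to cbh-1, and gh7-4 had under 60 reads in each WT Avicel library. The ratio of gh7-1 was 8.16% to 9.23% on Avicel in the WT and 26.2% in TBGK on Avicel.

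**Figure D3:**
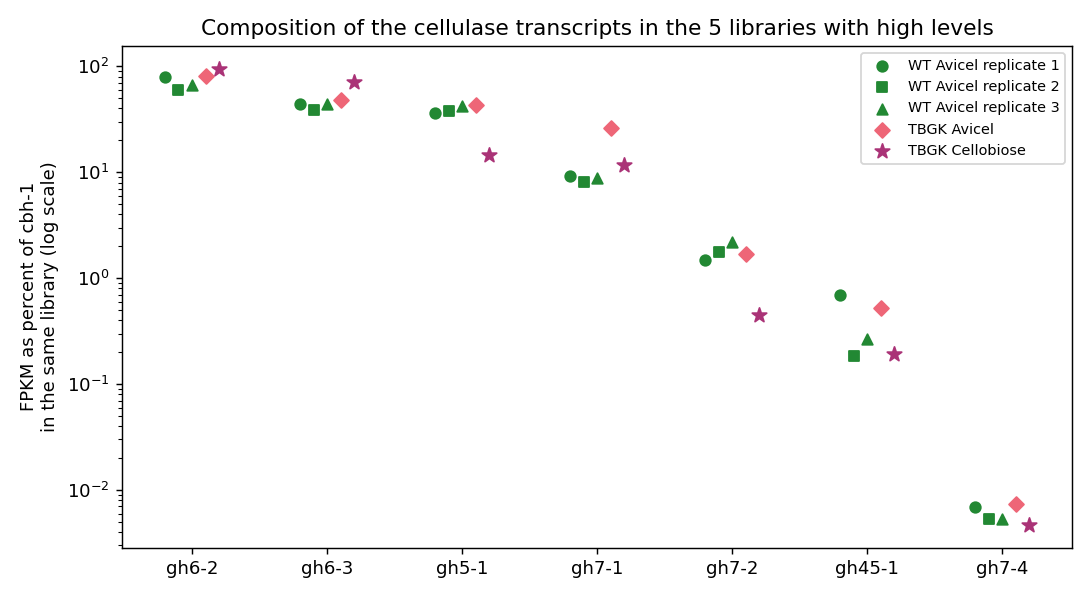
FPKM of 7 cellulase genes as a percent of cbh-1 in the same library (log axis) in the 3 WT Avicel replicates, TBGK on Avicel and TBGK on cellobiose. TBGK on cellobiose (stars) is highest for gh6-2 (94.8%) and gh6-3 (71.1%) and lowest for gh5-1 (14.4%), gh7-2 and gh7-4, and TBGK on Avicel (diamond) is highest for gh7-1 (26.2%).

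Together the 8 genes held 9.79%, 5.43% and 6.66% of all FPKM in the WT Avicel replicates, 8.38% in TBGK on Avicel and 6.64% in TBGK on cellobiose. They held 0.0112% to 0.0128% on no carbon, 0.00198% to 0.00391% on sucrose, 0.00479% in TBGK on sucrose and 0.0887% in WT on cellobiose. As a share of reads the WT Avicel values were 9.94%, 5.08% and 6.28%, and cbh-1 alone took 5.52%, 2.97% and 3.49% of all reads. Of that pool, the 4 genes from cbh-1 to gh5-1 made up 95.7% to 95.9% in the WT Avicel replicates, 95.8% in TBGK on cellobiose and 90.6% in TBGK on Avicel. Between 2 and 4 of the 8 were among the 10 most abundant genes in each of those 5 libraries, and 5 were among the 100 most abundant.

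On cellobiose the WT had levels of most cellulase genes near those on no carbon or sucrose. Against sucrose 5 of 8 genes were at least 2-fold higher (21.2% of all genes), against no carbon 2 were higher (15.8%) and 3 lower (26.0%), and against Avicel all 8 were lower (19.5%). The exception in size was gh6-3, at 3989 FPKM. It ranked 229 of 9733 genes, made up 89.6% of the FPKM of the 8 genes and stood at 30.4 times gh6-2, against 0.427 to 0.998 times in the other 12 libraries. The 13-library fit called 8.45% of all genes against sucrose and 26.0% against no carbon. In it gh6-3 was 5.31 log2 above no carbon (SE 0.46, limma adjusted p = 0.000377) and 6.68 above sucrose (SE 0.46, limma adjusted p = 0.000331). Of the other members only cbh-1 passed against sucrose (3.31, SE 0.83, limma adjusted p = 0.0451), at 246 FPKM, and none passed against no carbon. The condition had 1 library, so neither value has a replicate of its own.

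The level of gh6-3 in WT on cellobiose was 7.47% of the WT Avicel mean, and the other 7 genes were at 0% to 1.88%. The highest of these was gh45-1, which was at 5.01% without Avicel replicate 1. Other genes of the pathway were set beside it, namely 14 genes of lytic polysaccharide monooxygenases (LPMOs, which cleave cellulose by oxidation), 11 of cellobiose oxidation, uptake and hydrolysis, and 6 regulators. Of the 21 listed genes with a WT Avicel mean of at least 1000 FPKM, 13 were under 1% and 6 at 5% or more in WT on cellobiose. Those 6 were gh6-3, the cellodextrin transporter cdt-1 (7.98%), the beta-glucosidases gh1-1 (6.21%) and gh3-3 (37.3%), and the regulators xlr-1 (16.7%) and vib-1 (49.1%). Without Avicel replicate 1 cdt-1 was at 13.5%, and with any one Avicel replicate left out 6 or 7 genes were at 5% or more. The other cellodextrin transporter, cdt-2, was at 3.76%. For the 6 genes at 5% or more, the WT no carbon mean differed widely as a percent of the WT Avicel mean. It was 0.186% for gh6-3, 1.94% for cdt-1, 0.446% for gh1-1, 4.49% for gh3-3, 28.9% for xlr-1 and 19.6% for vib-1. The level of xlr-1 in WT on cellobiose was therefore below its no carbon mean. The regulator clr-2, which is required for cellulase induction, was at 0.775% in WT on cellobiose and at 71.4% in TBGK on cellobiose. Its WT no carbon mean was at 0.903%. On cellobiose in WT and TBGK, clr-1 was at 19.5% and 43.2% and col-26 at 61.5% and 147%. In TBGK on cellobiose xlr-1 was at 103% and vib-1 at 58.9%. The WT Avicel means of clr-1 (802 FPKM) and col-26 (769) were under 1000 FPKM. The carbon repressor gene cre-1 had a mean of 318 FPKM on WT Avicel and 551 to 650 FPKM on WT sucrose. It was at 539% in WT on cellobiose (1712 FPKM), against 142% and 205% in TBGK on cellobiose and Avicel. Without Avicel replicate 1 these were 1353%, 356% and 515%.

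**Figure D4:**
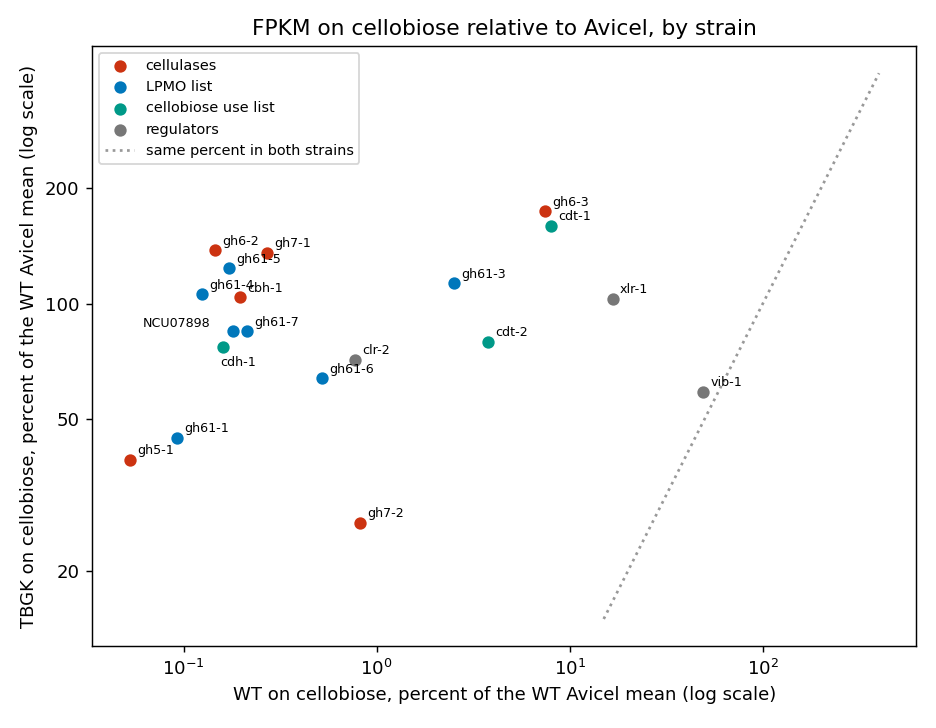
FPKM on cellobiose as a percent of the WT Avicel mean, in WT (horizontal) and TBGK (vertical, both log axes), 1 library each, for the 19 listed genes with a WT Avicel mean of at least 1000 FPKM that are not deleted in TBGK. Most cellulase and LPMO genes lie under 1% in the WT, and gh6-3 (7.47% and 174%) lies beside the transporter gene cdt-1 (7.98% and 160%).

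On Avicel against no carbon 9 of 14 LPMO genes, 6 of 11 cellobiose genes and 4 of 6 regulators rose and 0 fell. Of all genes 3.90% rose and 1.72% fell there. Against sucrose the numbers that rose were 11, 10 and 5, and 1 LPMO gene fell, where 33.9% of all genes rose and 24.5% fell. No carbon against sucrose gave 6 rises and 4 falls among LPMO genes, 8 and 0 among cellobiose genes and 3 and 1 among regulators. Of all genes 40.2% rose and 24.1% fell there, so the LPMO and regulator counts are near the background. The median difference on Avicel against no carbon was 4.84 for LPMO genes, 4.33 for cellobiose genes and 1.90 for regulators, below the 8.82 of the cellulase genes. These medians depend on which genes were listed, and the lists were chosen with earlier results of these data known. Among LPMO genes the difference was 13.47 for gh61-4 and 10.00 for gh61-7, but 0.10 for gh61-8 and -1.85 for gh61-10.

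The genes with the most similar profile over the 13 libraries were named by Pearson's r of log2(FPKM + 1), as a description, since the libraries fall into a high and a low class. Each member's own r with the mean of all 8 was 0.926 (gh45-1) to 0.998 (cbh-1). Outside the list the highest were the LPMO gene gh61-5 (0.996), the xylanase gene gh10-1 (0.994), the LPMO gene NCU07898 (0.993), NCU05864 (0.993) and the LPMO gene gh61-7 (0.990). The gene gh61-5 had 20619 to 37828 FPKM on WT Avicel, 35257 in TBGK on cellobiose and 49.0 in WT on cellobiose. For gh45-1 the nearest were gh61-6 (0.976), NCU03181 (0.975) and NCU12048 (0.958), and for gh7-4 NCU08790 (0.983), NCU08624 (0.981) and NCU01076 (0.977). NCU03181 had a mean of 2020.0 FPKM on WT Avicel, 33.9 on no carbon and 994 in TBGK on cellobiose. NCU01076 was, like gh7-4, listed at 0 in all sucrose libraries and in WT on cellobiose.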

How the data were processed

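Levels in 13 libraries were deposited as FPKM. The submitters' processing notes name Cufflinks 0.9.3 and TopHat, the latter with no version, as the authors' tools, and no genome build. Per the file headers, coverage (read depth averaged over a transcript), lengths and isoform fractions accompany FPKM in the triplicate tables. The fractions and the deposited FPKM bounds were not used. FPKM was summed per gene. Contig positions are the files' own; symbols came from RefSeq for 9016 of 9733 identifiers. Coverage times effective length is a whole multiple of 40, 50 or 51 bases, read here as read length: 97.3% to 99.6% of transcripts under 60 reads came within 0.02 of a whole read. Effective lengths differ between libraries (756 to 1113 bases for gh6-2).

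Genes that reached 1 FPKM in 3 or more of the 9 WT triplicate libraries were kept (8759), and log2(FPKM + 1) was fitted with limma 3.58.1 (trend, R 4.3.3), tested first on simulated data. A call is a Benjamini-Hochberg adjusted p under 0.05, and rose and fell are used for calls only. Interactions come from a fit over 13 libraries with 6 residual degrees of freedom, all from the triplicates. Comparisons with a single library were described, counting 2-fold differences in log2(FPKM + 1). Those between single libraries and triplicates also compare deposits, since the labels mark the 9 triplicate libraries as duplicating an earlier one. No 2 replicates agreed within sampling noise. Deviations of same-numbered libraries correlated at 0.179, 0.117 and 0.176 between Avicel and sucrose, so numbers may pair these. Avicel replicate 3 with sucrose replicate 2 gave 0.155, however, so these values do not settle it. Same-numbered libraries correlated at -0.197, -0.308 and 0.453 between Avicel and no carbon and at -0.116, -0.0937 and -0.0196 between no carbon and sucrose. Alternatives were other pseudocounts, scalings, filters, fits and left-out replicates, with percents of the Avicel mean and reads of gh7-4 recomputed without each replicate after the data were seen. The members, gene lists and tests were chosen with earlier results of these data known. Named outside the list were the genes most correlated with it and the pathway genes. Tables were made with pandas 2.3.3 and numpy 2.4.6 in Python 3.11.15, and plots with matplotlib 3.10.9.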

Additional observations from a re-analysis of the deposited data

Results flagged for a closer look

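The response to cellobiose differed between the strains by a test of the interaction in the 13-library limma fit, in which the single libraries were assumed to vary like the WT triplicates. These interactions set single libraries against triplicates that duplicate an earlier deposit, and a difference between deposits does not cancel in them. For cellobiose minus sucrose the response in log2(FPKM + 1) was larger in TBGK than in the WT by 8.62 for cbh-1 (limma adjusted p = 0.0171), 9.43 for gh6-2, 8.44 for gh7-1, 4.34 for gh6-3 and 4.66 for gh7-2. For cellobiose minus Avicel it was larger by 8.70 for cbh-1, 9.26 for gh6-2, 6.99 for gh7-1, 8.98 for gh5-1, 3.99 for gh6-3 and 4.69 for gh7-2. Among the genes that passed, gh6-3 had the smallest value in both sets, and its call for cellobiose minus sucrose was lost without sucrose replicate 3 (limma adjusted p = 0.0578).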

How the results depend on the processing

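All 8 calls on Avicel against sucrose held in all 23 alternatives, as did those of cbh-1, gh6-2, gh6-3, gh5-1, gh7-1 and gh7-2 on Avicel against no carbon. Scaling moved the median of all genes. TPM scaling, chosen after seeing the data like voom, the read length split and the pairwise block, took it to -0.39, 0.63 and 1.0 in the 3 WT comparisons. With the replicate number as a block, Avicel against sucrose kept 8 of 8 calls (4934 genes called in all), Avicel against no carbon had 6 (gh7-4 lost, adjusted p by limma 0.0732) and no carbon against sucrose had 4. With the block and only the 2 groups compared the numbers were 8, 6 and 5, and 154 genes were called for Avicel against no carbon, against 493. That count was 276 to 310.0 without one of Avicel replicates 2 and 3 and no carbon replicates 1 and 3 (up to 627 over all libraries left out), and 908 without the 40-base libraries. On no carbon against sucrose the count of 6 was 3 to 7 with single libraries left out, 3 with a pseudocount of 10 and with voom, and 2 under quantile normalization, where gh5-1 (-0.14), gh7-1 (-0.041) and gh7-4 (-0.046) changed sign.

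Leaving out 1 library gave 88 to 510.0 genes called for the cellobiose minus sucrose interaction (177 in the main analysis), 323 to 1833 for cellobiose minus Avicel (760.0) and 0 to 507 for Avicel minus sucrose (5), the highest each time without Avicel replicate 1. For Avicel minus sucrose, the count was 8 with a pseudocount of 10 and 2 under quantile normalization. Its member values, none of them called, changed sign with single libraries left out (ranges -0.83 to 0.44 for cbh-1, -0.94 to 0.87 for gh45-1, -1.69 to 0.67 for gh5-1, -0.16 to 0.60 for gh6-2 and -0.26 to 0.16 for gh7-2). With a pseudocount of 10 they were 0.10 for cbh-1, 0.59 for gh45-1, 0.34 for gh5-1 and 0.073 for gh7-2, with quantile normalization 0.34 for cbh-1, and with TPM scaling -0.56 for gh6-2 and -0.36 for gh6-3. The cause was not tested.

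Counts of members past 2-fold moved as follows. TBGK against WT on Avicel (2 higher) had 1 to 4 with a replicate left out, 4 without the 40-base libraries, 1 with TPM scaling and 0 with quantile normalization or a 4-fold rule. TBGK against WT on sucrose (1) had 0 to 3 with a replicate left out, 2 with median-of-ratios scaling, and 0 with a pseudocount of 10, a 4-fold rule, TPM scaling or no 40-base libraries. TBGK on cellobiose against WT on Avicel had 2 higher without Avicel replicate 1 or the 40-base libraries, and 0 lower by the 4-fold rule; against TBGK on Avicel that rule left 1. WT on cellobiose against no carbon had 1 higher by the 4-fold rule or TPM scaling, and 1 lower with a pseudocount of 10 or quantile normalization and 0 by the 4-fold rule; against sucrose it had 3 higher with quantile normalization or the 4-fold rule. Without the 100 highest genes in the denominator, the share of FPKM was 11.1% in WT on Avicel, 13.8% in TBGK on Avicel, 10.9% in TBGK on cellobiose, 0.137% in WT on cellobiose, 0.0164% on no carbon, 0.00474% on sucrose and 0.00733% in TBGK on sucrose.

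Of 72 member values in the triplicates, 19 rested on under 60 reads, namely all 9 of gh7-4 and 10 on sucrose from cbh-1, gh5-1, gh6-3, gh7-1, gh7-2 and gh45-1.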
